A study of Mus musculus with 20 samples.

Results

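The urea cycle turns the ammonia released by amino acid breakdown into urea, and it runs mainly in the periportal hepatocytes, the liver cells around the portal vein. N-acetylglutamate synthase (*Nags*) makes the activator of carbamoyl phosphate synthetase (*Cps1*), and ornithine transcarbamylase (*Otc*), argininosuccinate synthase (*Ass1*), argininosuccinate lyase (*Asl*) and arginase (*Arg1*) carry the cycle from carbamoyl phosphate to urea. Liver glutaminase (*Gls2*), histidine ammonia-lyase (*Hal*) and serine dehydratase (*Sds*) release ammonia from amino acids in the same zone, and cytosolic phosphoenolpyruvate carboxykinase (*Pck1*) is the entry enzyme of gluconeogenesis. These 10 genes were taken as a fixed list, and each was looked up through the RefSeq accession of the array probes. Of the 10 genes, 8 were measured, by 9 of the 41174 probes of the array, because *Otc* has 2 probes. *Cps1* and *Pck1* were not analysed here.

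The liver RNA came from 20 male Muta™Mouse animals (strain 40.6), a line that carries a *lacZ* transgene for mutation assays, and all animals were 25 weeks old. Each of 4 groups held 5 mice: controls given olive oil alone (replicates 1 to 5), and mice given benzo(a)pyrene (BaP), a polycyclic aromatic hydrocarbon, in olive oil at 25 (replicates 6 to 10), 50 (replicates 11 to 15) or 75 mg/kg/day (replicates 16 to 20). Dosing was by daily gavage for 28 days, and tissue was taken 3 days after the last dose. Every liver sample, labeled with Cyanine 5, was hybridized once against a reference RNA pooled from 11 mouse cell lines and labeled with Cyanine 3, without dye swap. Values are log2 ratios of liver over reference for 1 probe, so they are levels relative to that pool. Between probes their size was used only for the tissue check and to sort probes by liver enrichment. The 3 contrasts share the 5 control arrays.

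One label of the samples names lung, whereas the others name liver. The hepatocyte markers *Alb*, *Ttr*, *Apoa1*, *Apob* and *Fgb* were all present, and their mean log2 ratio lay between 4.59 and 5.87 on the control arrays. Of 4 lung epithelial markers, *Sftpc* and *Sftpb* were not present, and the other two averaged between 0.08 and 0.35 on the control arrays. The arrays lay on 6 slides. All arrays at 25 mg/kg/day were in slide position 2 and all at 75 mg/kg/day in position 4, and the controls were in position 1 but for replicate 2, which was in position 2. The exposed arrays at 50 and 75 mg/kg/day thus shared no position with a control, and for these doses the contrast with control and the position cannot be told apart. In position 2 the log2 ratio of *Ass1* was 3.45 in control replicate 2 and 3.50 to 4.25 at 25 mg/kg/day, and that of *Nags* was 3.95 and 4.13 to 4.51. This control is 1 array on slide 6, which held no array at 25 mg/kg/day. Slide and dose therefore cannot be told apart in that comparison. Control replicate 4 stood apart in brightness, with 67.5% of its spots well above the background of the liver channel, whereas the other control arrays had 51.9 to 54.3%. The exposed arrays had 55.5 to 61.0% at 25, 52.5 to 62.4% at 50 and 53.0 to 61.4% at 75 mg/kg/day. Brightness thus also differed between the other controls and many exposed arrays, and its part in the ratios was not tested. Precision is limited by having 5 arrays in a group.

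RefSeq start sites were given for 4 of the 8 measured members. The 250 bases upstream of each are shown because the ratios of the members varied together across the arrays, as described further on. They are also shown because BaP is a ligand of the aryl hydrocarbon receptor, whose response element has the core GCGTG. Coordinates are from GRCm38.p6, on the plus strand, for *Ass1* (chr2:31470020-31470269), *Nags* (chr11:102145263-102145512), *Otc* (chrX:10252055-10252304) and *Hal* (chr10:93488518-93488767). Capitals mark matches, on either strand, to that core (GCGTG or CACGC), the cAMP response element (TGACGTCA), the TATA box (TATAAA or TTTATA), the GC box (GGGCGG or CCGCCC) and the CCAAT box (CCAAT or ATTGG), and no match overlapped another.
Ass1: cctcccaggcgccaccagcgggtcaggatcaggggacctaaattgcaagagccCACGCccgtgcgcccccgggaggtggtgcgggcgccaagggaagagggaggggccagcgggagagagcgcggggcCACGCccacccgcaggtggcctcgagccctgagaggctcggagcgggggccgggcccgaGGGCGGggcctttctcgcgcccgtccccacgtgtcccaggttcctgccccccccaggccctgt
Nags: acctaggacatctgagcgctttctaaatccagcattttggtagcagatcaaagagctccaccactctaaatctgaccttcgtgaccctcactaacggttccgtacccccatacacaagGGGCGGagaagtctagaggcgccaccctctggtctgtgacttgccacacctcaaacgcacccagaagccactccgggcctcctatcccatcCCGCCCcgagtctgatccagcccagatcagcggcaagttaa
Otc: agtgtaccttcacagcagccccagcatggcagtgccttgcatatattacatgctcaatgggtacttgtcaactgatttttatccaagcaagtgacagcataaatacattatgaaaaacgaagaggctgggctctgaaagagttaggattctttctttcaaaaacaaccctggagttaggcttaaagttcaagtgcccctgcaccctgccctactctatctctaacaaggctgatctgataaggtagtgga
Hal: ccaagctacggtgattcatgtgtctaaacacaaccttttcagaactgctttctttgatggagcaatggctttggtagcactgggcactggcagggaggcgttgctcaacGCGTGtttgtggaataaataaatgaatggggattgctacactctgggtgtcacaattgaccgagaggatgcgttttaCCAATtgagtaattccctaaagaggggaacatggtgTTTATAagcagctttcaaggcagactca
The *Ass1* sequence held the receptor core at 197 and 122 bases before the start site and a GC box at 63 bases, and *Hal* held the core once, at 141 bases, with a CCAAT box at 64 and a TATA match at 28 bases. *Nags* held a pair of GC boxes, at 132 and 41 bases, and *Otc* held no match to any of these motifs. Of 32851 mouse promoter windows of the same length, 28.2% held the receptor core, 32.7% a GC box, 33.8% a CCAAT box, 12.4% a TATA match and 1.55% the cAMP response element. The G and C content was 75.6% for *Ass1*, 55.6% for *Nags*, 45.6% for *Hal* and 43.6% for *Otc*.

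All 9 probes were present, well above background in the liver channel on every array, and each was a single spot. No member probe was called at any dose, where a call needs a fold change over 1.5 together with an adjusted p under 0.05 in limma with Benjamini-Hochberg adjustment over 27346 present probes. The share of all present probes called was 0%, 0% and 0.135% at 25, 50 and 75 mg/kg/day. At an unadjusted p under 0.05, 2 member probes were higher at 25, 3 at 50 and 6 at 75 mg/kg/day, against 4.18%, 3.75% and 6.52% of all present probes. No member probe had a linear trend with dose at an adjusted p under 0.05, against 0.157% of present probes, and 6 of the 9 had a positive slope at an unadjusted p under 0.05, against 5.07% of present probes. The estimates nevertheless lay on 1 side: all 9 probes had a mean above that of the controls at each dose, where 50.3%, 49.2% and 50.6% of present probes did. The median log2 fold change of the 8 genes was 0.25, 0.26 and 0.35 at 25, 50 and 75 mg/kg/day, beside 0.00 for all present probes at each dose.

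**Figure D1:**
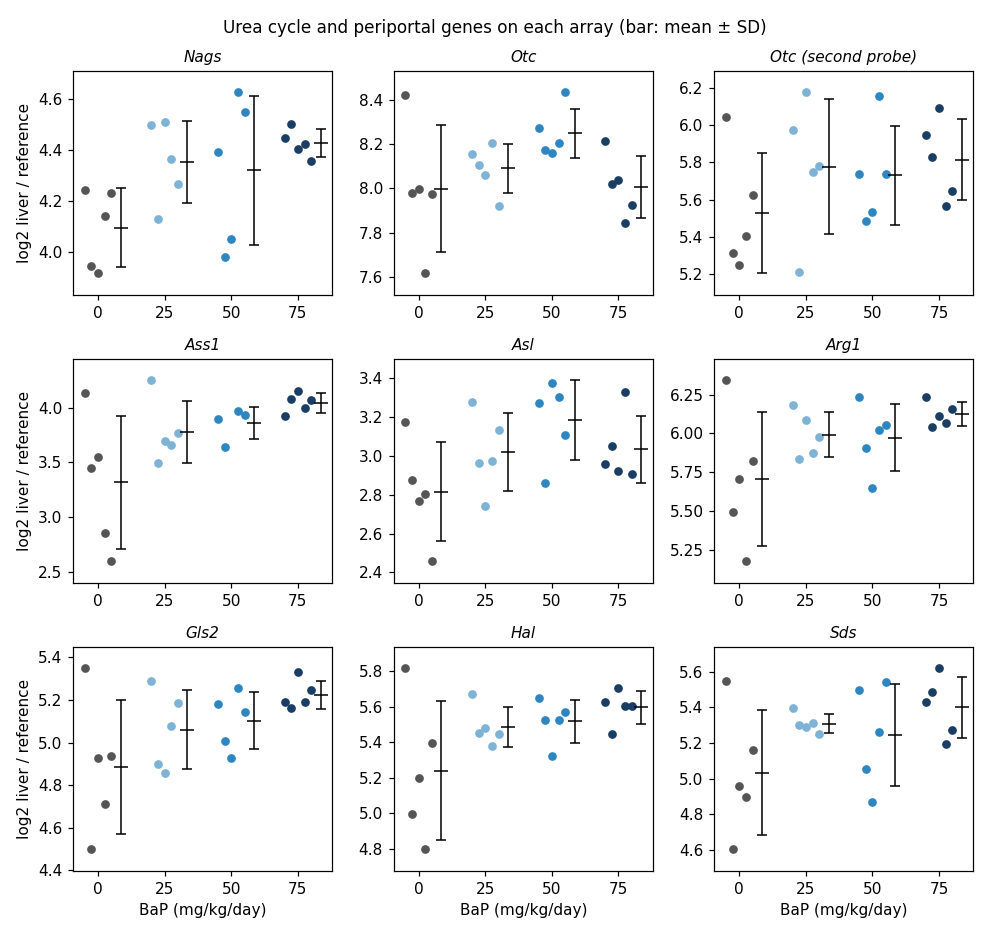
Log2 ratio of liver over reference on each of the 20 arrays for the 9 probes of the 8 measured genes, by dose of BaP in mg/kg/day (0 is the olive oil control). Points are arrays and black bars are the mean ± SD of a group; the controls spread widely for Ass1 and Arg1, whereas the 5 arrays at 75 mg/kg/day lie close together, and only for Nags do all 5 lie above every control.

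*Ass1*, which joins citrulline to aspartate, had the largest estimate of the members at every dose. On the control arrays its log2 ratio was 4.13, 3.45, 3.55, 2.86 and 2.60 (replicates 1 to 5). At 25 mg/kg/day it was 4.25, 3.50, 3.70, 3.66 and 3.77 (replicates 6 to 10). At 50 mg/kg/day it was 3.90, 3.64, 3.97 and 3.93 in replicates 11, 12, 14 and 15, and the spot of replicate 13 was marked as an outlier and left out. Control replicates 4 and 5 were low and control replicate 1 was as high as the exposed arrays. At 75 mg/kg/day the ratio was 3.92, 4.08, 4.15, 3.99 and 4.07 (replicates 16 to 20), above 4 of the 5 controls, but only replicate 18 exceeded control replicate 1. The mean was 3.32 ± 0.60 (SD, n = 5) in controls and 3.77 ± 0.28 (n = 5), 3.86 ± 0.15 (n = 4) and 4.04 ± 0.09 (n = 5) at the 3 doses in turn. The change at 75 mg/kg/day was 1.66-fold (95% confidence interval 1.23 to 2.23, limma adjusted p = 0.194). At 25 and 50 mg/kg/day the log2 fold change was 0.46 (SE 0.21) and 0.54 (SE 0.22), with limma adjusted p of 0.638 and 0.707. Without control replicate 1 the change at 75 mg/kg/day was called, with a log2 fold change of 0.93 and a limma adjusted p of 0.0343; over 31 other fits the adjusted p ranged from 0.125 to 0.479.

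*Nags* was the only member with every array at 75 mg/kg/day above every control, which 0.936% of present probes showed. The control ratios were 4.24, 3.95, 3.92, 4.14 and 4.23 (replicates 1 to 5), and those at 75 mg/kg/day were 4.45, 4.50, 4.40, 4.42 and 4.36 (replicates 16 to 20). In the liver channel alone, without the reference, the controls ran from 10.69 to 11.70. The high-dose arrays ran there from 10.52 to 12.02, so both groups overlapped. Only as ratios to the reference were the high-dose arrays tightly grouped just above the highest control. At 25 mg/kg/day the values were 4.50, 4.13, 4.51, 4.36 and 4.27 (replicates 6 to 10), and at 50 mg/kg/day 4.39, 3.98, 4.05, 4.62 and 4.55 (replicates 11 to 15). At these doses 4 and 3 of the 5 arrays lay above all controls, so the groups overlapped, whereas 0.559% and 0.527% of present probes had no overlap. The log2 fold change was 0.26 (SE 0.12), 0.22 (SE 0.12) and 0.33 (SE 0.12) at 25, 50 and 75 mg/kg/day, with limma adjusted p of 0.639, 0.768 and 0.316.

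The *Otc* probes, which read the step from ornithine to citrulline, gave different values. The brighter probe had control ratios of 8.42, 7.98, 8.00, 7.62 and 7.98 (replicates 1 to 5) and ratios of 8.22, 8.02, 8.04, 7.84 and 7.92 at 75 mg/kg/day (replicates 16 to 20). Those groups overlapped throughout, and the log2 fold change was 0.01 (95% confidence interval -0.23 to 0.25). At 50 mg/kg/day its ratios were 8.27, 8.17, 8.16, 8.20 and 8.43 (replicates 11 to 15), above 4 of the 5 controls, and the log2 fold change was 0.25 (limma adjusted p = 0.731). At 25 mg/kg/day it was 0.09 (limma adjusted p = 0.863). The dimmer probe had a log2 fold change of 0.25, 0.20 and 0.29 at 25, 50 and 75 mg/kg/day, with 1 array of each dose above all controls and limma adjusted p of 0.735, 0.86 and 0.556. The difference between the 2 probes was not tested.

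For *Asl*, which splits argininosuccinate into arginine and fumarate, the largest estimate was at the middle dose. Its ratios at 50 mg/kg/day were 3.27, 2.86, 3.37, 3.30 and 3.11 (replicates 11 to 15), and 3 of these 5 lay above the control range of 2.46 to 3.17. The log2 fold change was 0.20 (SE 0.13), 0.37 (SE 0.13) and 0.22 (SE 0.13) at 25, 50 and 75 mg/kg/day, and the limma adjusted p was 0.713, 0.678 and 0.555. *Arg1*, which releases urea from arginine, ranged from 5.18 to 6.34 on the control arrays and from 6.04 to 6.23 at 75 mg/kg/day. Thus the high-dose arrays fell inside the control range, near its upper end. Its log2 fold change was 0.28, 0.26 and 0.41 (SE 0.15 each), with a limma adjusted p of 0.326 at the highest dose.

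The enzymes that release ammonia from amino acids had estimates of the same size as *Arg1*. *Hal* had control ratios from 4.80 to 5.82 and ratios from 5.45 to 5.71 at 75 mg/kg/day, with a log2 fold change of 0.36 (SE 0.14) and a limma adjusted p of 0.333. *Gls2* had control ratios from 4.50 to 5.35 and ratios from 5.16 to 5.33 at 75 mg/kg/day, with a log2 fold change of 0.34 (SE 0.13) and a limma adjusted p of 0.325. *Sds* had control ratios from 4.60 to 5.55 and ratios from 5.19 to 5.62 at 75 mg/kg/day, with a log2 fold change of 0.37 (SE 0.15) and a limma adjusted p of 0.364. In each case the exposed arrays overlapped the control range, whose upper end was control replicate 1. At the lower doses the estimates for these enzymes were between 0.18 and 0.28. The group means of *Ass1*, *Hal* and *Gls2* were in the order of dose, but the linear trend had limma adjusted p of 0.242, 0.452 and 0.418.

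**Figure D2:**
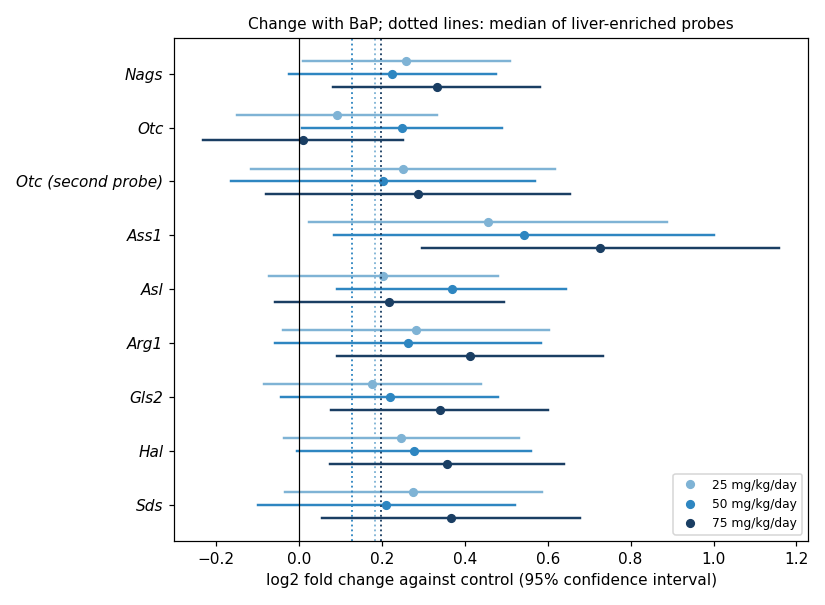
Log2 fold change against control (horizontal axis) with 95% confidence intervals from limma for each probe (rows) at 25, 50 and 75 mg/kg/day. Every point lies above 0, and the dotted lines at 0.18, 0.13 and 0.20 give the median of the 2082 liver-enriched probes at the same 3 doses.

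The same direction was found in liver-enriched probes in general. A liver-enriched probe was taken as a present probe whose log2 ratio averaged 2 or more over the 20 arrays, and 2082 probes, the members among them, met this. Their median log2 fold change was 0.18, 0.13 and 0.20 at 25, 50 and 75 mg/kg/day, and 80.9%, 71.6% and 76.2% of them were higher than in controls. At 75 mg/kg/day 23.4% of them were higher at an unadjusted p under 0.05. At this dose the median was higher in classes of probes with a higher ratio: it was -0.10 for probes with a mean ratio under -2, 0.03 for those from 0 to 1, 0.19 for those from 3 to 4 and 0.34 for those of 5 or more. *Hal*, *Gls2*, *Sds* and *Nags* lay near the median of their class at this dose, and 25.6 to 31.2% of liver-enriched probes had a change at least as high. *Ass1* lay above its class: 3.22% of liver-enriched probes had a change at least as high at the highest dose, 4.08% at the middle and 8.31% at the lowest dose. *Otc* (brighter probe) lay below, with 75.2% at least as high at 75 mg/kg/day.

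**Figure D3:**
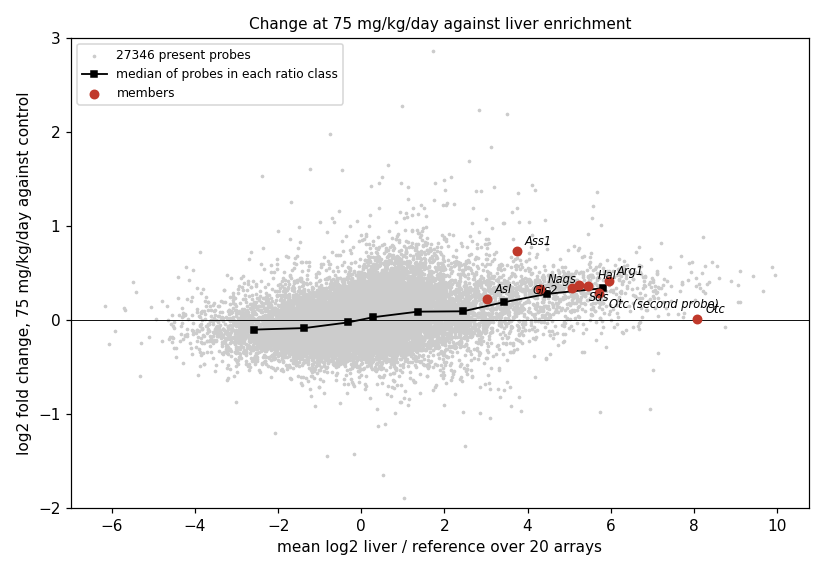
Log2 fold change at 75 mg/kg/day (vertical axis) against the mean log2 ratio of liver over reference on the 20 arrays (horizontal axis) for 27346 present probes (gray), with 1 probe beyond the vertical limits. Black squares are medians of probes grouped by ratio, going from -0.10 to 0.34, and red points are the 9 member probes, of which Ass1 lies above the line of medians and the brighter Otc probe below it.

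The estimates depended on how the arrays were scaled. When each array was centered on the liver-enriched probes, which lowers all present probes by a median of 0.14, 0.11 and 0.15 at the 3 doses, the median of the 8 genes was 0.11, 0.15 and 0.20. On this scale *Ass1* was still higher at 75 mg/kg/day, by 0.58 on the log2 scale (limma adjusted p = 0.142), *Arg1* by 0.26, *Sds* and *Hal* by 0.21 and 0.20, and *Otc* was at -0.14. With the liver channel taken alone and quantile normalized, without the reference, the median of the members was -0.01, 0.16 and 0.03, and 4, 6 and 4 of the 8 genes were above 0. *Ass1* was at 0.45 at 75 mg/kg/day on that scale (limma adjusted p = 0.364), *Sds* at 0.21, *Gls2* at 0.12, *Nags* at 0.07 and *Hal* at 0.00. *Asl* was at -0.07, *Arg1* at -0.09 and *Otc* at -0.25. *Ass1* and *Sds* thus stayed above 0 at every dose under all 3 scalings, as did *Gls2*, whereas *Otc*, *Hal*, *Arg1*, *Nags* and *Asl* did not. Centering on the median in place of loess shifted all present probes by a median of 0.11, -0.08 and 0.10, and gave a median of the members of 0.44, 0.06 and 0.52.

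**Figure D4:**
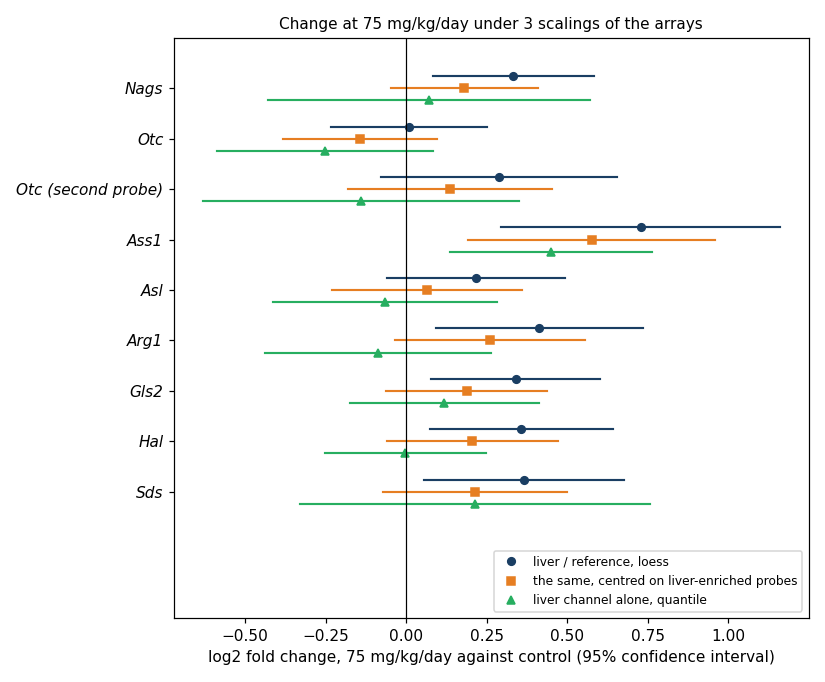
Log2 fold change at 75 mg/kg/day against control with 95% confidence intervals (horizontal axis) for each probe (rows) under 3 scalings: loess ratios, the same centered on liver-enriched probes, and the liver channel alone. The Ass1 interval lies above 0 under each scaling, at 0.73, 0.58 and 0.45. In the liver channel alone Arg1, Asl and both Otc probes are below 0, and Hal is just below it at -0.0031.

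Within slides, differences were available where a slide held a control and an exposed array. At 75 mg/kg/day each such difference is 1 exposed array against 1 control array. On slides 1 and 2, whose controls are replicates 4 and 5, *Ass1* at this dose was above its control by 1.22 and 1.55 on the log2 scale. These replicates had the lowest control ratios of *Ass1*. On slide 3, whose control is replicate 1, the *Ass1* ratio was at -0.21. In the liver channel alone control replicate 4 was not low. There the 75 mg/kg/day and control arrays were at 16.02 and 15.58 on slide 1. They were at 15.89 and 14.87 on slide 2, and at 15.79 and 15.60 on slide 3. In the ratios the division by slide held for the other genes too. At 75 mg/kg/day 2 of 3 slides gave a higher ratio for each probe but that of *Nags*. The *Nags* ratio was higher on 3 of 3 slides by 0.175 to 0.36. *Nags* was also higher on 3 of 3 slides with the lowest dose, by 0.024 to 0.28, and on 4 of 4 with the middle dose, by 0.085 to 0.41. *Asl* was higher on 4 of 4 with the middle dose. The control arrays of a slide serve for every dose on it, so these counts are not independent of each other. With slide as a random block, the *Ass1* change at 75 mg/kg/day was 0.73 with a limma adjusted p of 0.125, and that of *Nags* was 0.27 (limma adjusted p = 0.234). With slide as a fixed term the change was 0.73 for *Ass1* (limma adjusted p = 0.218) and 0.20 for *Nags* (limma adjusted p = 0.392), and the median of the members was 0.13, 0.26 and 0.23 at 25, 50 and 75 mg/kg/day. Slides accounted for 67.6% of the variance of *Nags*, 58.1% of that of *Sds* and 22.2% of that of *Ass1* over the arrays, and dose groups for 35.9%, 27.8% and 43.1%. Slides and doses were not balanced, so these shares overlap and do not add up.

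Much of the spread of the ratios was among the controls. Control replicate 1 had the highest control ratio for all 9 probes. In the liver channel alone it was the highest control for *Ass1* and both *Otc* probes and the lowest for *Nags* and *Asl*. There *Nags* ran from 10.69 to 11.70 in controls and from 10.52 to 12.02 at 75 mg/kg/day. *Arg1* ran from 14.50 to 15.34 and from 14.78 to 15.10. SDs were not compared in that channel. The SD of the ratios within the 75 mg/kg/day group was below that within the controls for 9 of 9 probes, with a median of 0.09 against 0.32. The same was seen for 8 probes at 50 and 7 at 25 mg/kg/day. Among all present probes the exposed group had the lower SD for 58.6%, 58.3% and 57.1% at 25, 50 and 75 mg/kg/day, and among liver-enriched probes for 63.5%, 64.4% and 65.2%, with a median at the highest dose of 0.25 against 0.33. Averaged over the 8 genes after centering each, control replicate 1 was at 0.27 and the other controls between -0.48 and -0.23, against 0.08 to 0.18 at 75 mg/kg/day. The same average of the 5 hepatocyte markers was 0.34 for control replicate 1 and -0.94 for control replicate 4. Without control replicate 4 the median log2 fold change of the members was 0.17, 0.18 and 0.29 at the 3 doses, and without control replicate 1 it was 0.34, 0.39 and 0.47.

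**Figure D5:**
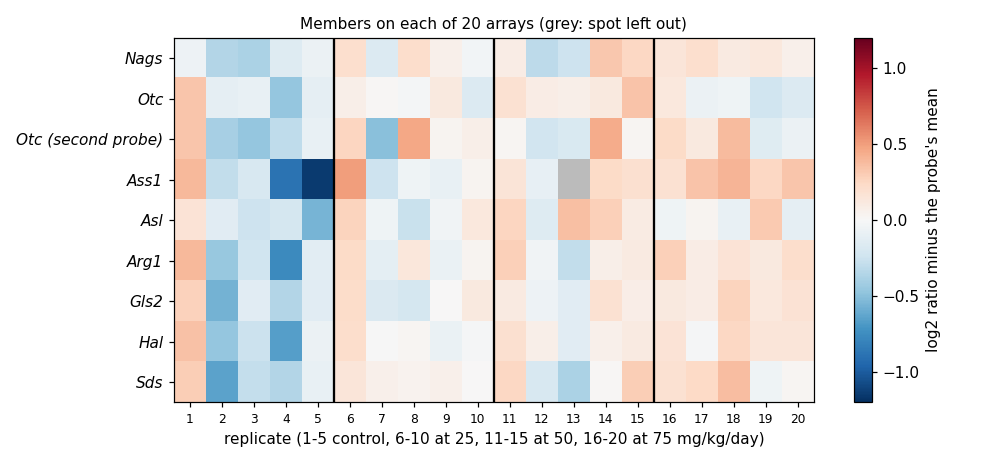
Log2 ratio minus the mean of the probe (color) for each of the 9 probes (rows) on the 20 arrays (columns; vertical lines part the dose groups). Control replicate 1 is the highest of the 5 controls in every row and above the mean of the probe in all rows but that of Nags, control replicates 2 to 5 are below the mean in every row, and the lowest values are those of Ass1 in control replicates 5 and 4.

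The ratios of the members to the reference varied together across the arrays. Of the 28 pairs of genes, 20 had a Pearson r with an adjusted p under 0.05 (permutation test, 100000 resamples, two-sided, adjusted over the 28 pairs), with r from 0.25 to 0.96 and a median of 0.62, and 18 pairs passed by Spearman's rho. With slide means subtracted, 23 pairs passed and the median r was 0.70. Subtracting slide means leaves fewer independent values than arrays, and the shuffle did not allow for this. Those p-values are therefore too small, and the 23 cannot be set against the 20. The permutation shuffled arrays across dose groups and slides, and dose was not removed. Differences between groups or arrays that the genes share thus also enter r and its p. Pairs of other genes were not counted in this way. *Arg1* and *Hal* were the closest pair, with r = 0.96 and rho = 0.93 (n = 20, permutation p = 1e-05 for each, the smallest that 100000 resamples can give; adjusted p = 0.00014 for each). Without the 2 arrays farthest from the median of *Arg1* their r was 0.91. All these correlations are of ratios to the reference, and none was computed in the liver channel alone. In that channel the array with the highest *Arg1* (control replicate 5, 15.34) had *Hal* at 14.57. The array with the lowest *Arg1* there (control replicate 2, 14.50) had *Hal* at 15.01. *Ass1* and *Asl*, which act in succession, had r = 0.74 and rho = 0.64 (n = 19, permutation p = 0.00031 and 0.00404; adjusted p = 0.00108 and 0.00943). Their r was 0.59 without the 2 arrays farthest from the median of *Asl*. The r of *Asl* was between 0.25 and 0.49 with all genes but *Ass1*, and that of *Otc* was between 0.27 and 0.62. In each pair, the 2 arrays farthest from the median of the gene first in the alphabet were then left out, whatever the other gene did. With these left out, r was 0.26 to 0.63 for *Asl* and 0.17 to 0.35 for *Otc*. *Otc* and *Nags* had r = 0.27 and rho = 0.31 (n = 20, permutation p = 0.252 and 0.191; adjusted p = 0.261 and 0.214).

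Among 12802 other genes with a value on all arrays, those most like the mean of the members were *Acaa1b* (r = 0.95), a peroxisomal thiolase, *Cyp2c29* (0.93) and *Cyp3a16* (0.92), cytochrome P450 enzymes, *Mst1* (0.92), a secreted liver protein, and *Pzp* (0.92), a plasma protease inhibitor. These are correlations over 20 arrays that share slides and normalization, and after removal of slide means they were between 0.89 and 0.97. The median r was 0.36 for 1281 other liver-enriched genes and -0.02 for all genes. Of the hepatocyte markers, *Apoa1* (0.89), *Ttr* (0.86), *Apob* (0.75) and *Alb* (0.66) resembled the members, and *Fgb* (-0.04) did not. The 5 most similar genes were themselves higher at 75 mg/kg/day by 0.27 to 0.59 on the log2 scale, with limma adjusted p from 0.239 to 0.372.

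The genes around the urea cycle were compared next. Of 15 carriers, transaminases and other genes that supply it with nitrogen and bicarbonate, 12 were present and none was called at any dose. The median log2 fold change of these was 0.13, 0.16 and 0.15, and 10, 10 and 9 of the 12 were higher at 25, 50 and 75 mg/kg/day. The aspartate and glutamate carrier *Slc25a13*, which supplies the aspartate used by *Ass1*, was at 0.14 at 75 mg/kg/day (limma adjusted p = 0.874), and *Glud1*, glutamate dehydrogenase, at -0.10 (limma adjusted p = 0.85). *Slc25a15* and *Car5a* were not analysed here. Of 26 other genes of amino acid catabolism 23 were present, none was called, and 23, 20 and 21 were higher, with a median of 0.23, 0.17 and 0.31. *Tat*, tyrosine aminotransferase, was at 0.49 at 75 mg/kg/day with a limma adjusted p of 0.44.

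Other markers of the periportal zone had estimates similar to those of the members, and so had markers of the opposite zone. The 9 periportal markers had a median of 0.25, 0.19 and 0.42 at the 3 doses, and none was called. *Cyp2f2*, a periportal cytochrome P450, was at 0.64 at 75 mg/kg/day (limma adjusted p = 0.337), fructose-bisphosphatase *Fbp1* at 0.42 (0.481) and glucose-6-phosphatase *G6pc* at 0.34 (0.366). The 13 markers of pericentral hepatocytes, the cells around the central vein that take up remaining ammonia as glutamine, had a median of 0.27, 0.20 and 0.31, and none was called. Glutamine synthetase *Glul* was at 0.31 (limma adjusted p = 0.734) and ornithine aminotransferase *Oat* at -0.29 (limma adjusted p = 0.682). The 5 hepatocyte markers had a median of 0.28, 0.23 and 0.34. No difference between these lists was tested. In the liver channel alone the medians at 75 mg/kg/day were 0.13 for periportal, 0.12 for pericentral and -0.06 for hepatocyte markers.

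Upstream of the cycle stand the glucagon receptor and the factors that drive its genes. Of these 11 genes none was called, 10, 8 and 9 were higher, and their median was 0.20, 0.20 and 0.24. Among related enzymes typical of other cells, *Arg2* was not present, and the mitochondrial *Pck2* was at -0.14, 0.01 and 0.04 (limma adjusted p = 0.944 at the highest dose).

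Markers of the other liver cells differed in size and direction, and in tissue RNA fewer cells of a type and less RNA per cell cannot be told apart. The 5 bile duct markers had a median of -0.18, -0.13 and -0.17, the 6 stellate cell markers 0.34, 0.53 and 0.40, and 4 present lymphocyte markers -0.09, -0.04 and 0.00, without any call. The 6 endothelial markers had a median of 0.36, 0.29 and 0.44, and the 5 Kupffer cell markers 0.26, 0.21 and 0.12. The mean log2 ratio of the endothelial list ranged from 2.54 to 3.47 in controls and from 3.47 to 4.16 at 75 mg/kg/day, and that of the Kupffer cell list from 2.78 to 3.27 and from 3.20 to 3.91. Only 1 gene of each of these lists was called at 75 mg/kg/day: *Lyve1*, a receptor of sinusoidal and lymphatic endothelium, at 2.23 (SE 0.40, limma adjusted p = 0.0189), and *Marco*, a macrophage scavenger receptor, at 2.19 (SE 0.30, limma adjusted p = 0.00148). Both also had a trend with dose (limma adjusted p = 0.00602 and 0.000291). The other 4 Kupffer cell genes were between 0.03 and 0.16 at 75 mg/kg/day and the other 5 endothelial genes between 0.22 and 0.78, so 1 gene made up much of the shift of each list mean. The part of these cells in the values of the members was not tested.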

How the data were processed

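The median spot and background intensities in both channels were deposited by the authors as unnormalized scanner output, and the processed intensities beside them were background subtracted and dye normalized by the scanner software. The log2 ratios deposited by the authors were LOWESS normalized within arrays. Here, normexp correction of the median intensities (offset 50) was followed by loess normalization of each array and averaging per probe, without spots that the software marked as outliers. Presence followed the paper's rule: signal above the trimmed mean plus 3 trimmed SDs of 153 negative control spots (5% trim) in at least 4 of 5 arrays of a group. The paper's MAANOVA was replaced by limma 3.58.1 in R 4.3.3, fitted to all 20 arrays and tested on simulated data. Statmod 1.5.0, version 1.17.8 of the package data.table, Python 3.11.15 and matplotlib 3.10.9 were also used. The paper removed 1 unnamed sample, and all were kept here. Symbols came from RefSeq accessions of GRCm38.p6 (23374 probes). The array design is of an older build, so its coordinates were not used. The brightest present probe stands for a gene that has more than 1.

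Members and lists were chosen with earlier results of these data known. Named in each other list were the called genes, those separated from all controls at 75 mg/kg/day (up to 2 each way), and *Glul*, *Oat*, *Slc25a15*, *Slc25a13*, *Glud1*, *Car5a*, *Tat*, *Cyp2f2*, *G6pc*, *Fbp1*, *Arg2* and *Pck2*, and 1 further gene is not reported here. The cell type markers used for the tissue check were named too. Alternatives were other background corrections, scalings, filters, slide terms and samples, and leaving out each array. The series text gives 24 mg/kg for the lowest dose, and the sample labels give 25. Each array held the RNA of 1 mouse.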

Additional observations from a re-analysis of the deposited data

How the results depend on the processing

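No member was called at 25 or 50 mg/kg/day, or in the trend, under any alternative. At 75 mg/kg/day the count was 0 throughout, except that leaving out single arrays gave 0 to 1 (*Ass1*, without control replicate 1, at 0.93). Over all present probes, the calls at 75 mg/kg/day ranged from 5 to 72 (37 in the fit reported), at 25 from 0 to 2, at 50 from 0 to 6, and those with a trend from 8 to 109 (43 in the fit reported). The number of correlated pairs was 20, and 17 with the authors' log ratios. The median of the members was -0.013 at 25 and 0.034 at 75 mg/kg/day in the liver channel alone. Signs turned in that scaling for *Hal* (-0.16 at 25, -0.045 at 50, -0.0031 at 75), *Arg1* (-0.070 at 25, -0.088 at 75), *Nags* (-0.15 at 25), *Asl* (-0.066 at 75) and *Otc* (-0.036 at 25, -0.089 at 50, -0.25 at 75). Centering on the liver-enriched probes, which was chosen after seeing the data, turned *Otc* at 25 (-0.049) and 75 (-0.14), and median centering turned *Gls2* at 50 (-0.017). Leaving out single arrays, *Otc* ranged from -0.0045 to 0.20 at 25 and from -0.086 to 0.11 at 75 mg/kg/day, turning without control replicate 4 and without replicate 16, and no other member turned. The cause was not tested. Replicate numbers are not shared between groups and pair no samples, and slide was the only block used.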
